A study of Saccharomyces cerevisiae with 6 samples.

Results

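Clusters of poly(A) sites lying far upstream of the most-read site of their gene were examined in budding yeast (Saccharomyces cerevisiae). Read 3′ ends had been grouped into clusters, each the site of cleavage and polyadenylation (pA site) of some transcripts of a gene. The cluster with the most reads over all 6 libraries was taken as the main cluster of the gene. Far-upstream clusters were those with 10 or more reads over the 6 libraries whose position was 300 nt or more upstream of the main cluster on the strand of the gene. They numbered 924 of the 13565 clusters in the table (6.81%) and lay in 700 of its 4014 genes (17.4%). They were chosen by their summed reads and position, so their summed reads, positions and shares are given as descriptions. The strain labels did not enter the choice. The deletion libraries hold more of the table's reads, though, with a mean of 428725 against 293123 in wild type. A cluster higher in the deletion therefore reached 10 reads more readily. The balance between directions, in level or in use, is for that reason not read as a result.

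The libraries came from mid-log yeast, 3 of them lacking JHD2 and 3 wild-type. JHD2 encodes the yeast KDM5-family demethylase that removes methyl groups from lysine 4 of histone H3, and the stated interest of the series is how KDM5 enzymes bear on 3′ untranslated region (UTR) length. Nothing in the labels names the strain background, the mating type, the medium or how many clones carried the deletion. Nothing says whether replicates were separate cultures, so a p-value here reflects library-to-library spread only, possibly of technical origin. The assay was 3′READS, in which tailed RNA fragments are captured and sequenced at their 3′ end.

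A yeast pre-mRNA is cleaved and given its poly(A) tail by the cleavage and polyadenylation factors, normally past the stop codon. They recognise A- and U-rich elements, among them an efficiency element of the TATATA kind and an A-rich positioning element, and cut near the end of a short run of A. An mRNA that ends before its stop codon lacks the end of the reading frame, and cells are known to degrade such transcripts as they are translated. Short transcripts near promoters can also be ended by the Nrd1, Nab3 and Sen1 proteins, which bind GTAA and TCTTG in the RNA and act with the nuclear exosome. A cluster near the start of a gene can also be the 3′ end of the gene before it, where that gene runs in the same direction.

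The 30 nt around the site are printed for the 8 most-read clusters, for both clusters called between strains (GSY2, RTT101), and for YGP1 and SER3, whose start-proximal ends are described with their values. Sequences read 5′ to 3′ on the gene's strand from the R64 (sacCer3) genome, and the clustered site is base 20. Capitals mark the run of A that ends at the site, which a read cannot place more exactly because its tail is A as well.
RPL26B (chrVII:555997-556026, plus strand): aaaaaaaaaaaaaaaagAAAcagcttttgc
ECM33 (chrII:394869-394898, plus strand): tgtcgttaatatctcttttAtttcttattg
PMA1 (chrVII:479833-479862, minus strand): acttgatttttctggtttAAtttttctaat
RPL8A (chrVIII:35176-35205, minus strand): ttaattttcaaacgttttAAtataataatg
GLY1 (chrV:67494-67523, minus strand): acggctttcttttgcatcAAtgatttttat
ERV25 (chrXIII:246108-246137, plus strand): aaaaaaggatgcaggtgttAcagttatggt
GCN1 (chrVII:139645-139674, plus strand): aagtcttccgctgtgcatAAgggttattta
ISW1 (chrII:711377-711406, minus strand): ttttgcaagAAAAAAAAAAAtacgattgta
GSY2 (chrXII:661686-661715, plus strand): aaaataagggtgctgacatgtttattgagg
RTT101 (chrX:349292-349321, minus strand): tgttgtatgagtgtgacaaggacactttat
YGP1 (chrXIV:336546-336575, plus strand): tgaagttccaagttgttttAtctgcccttt
SER3 (chrV:322736-322765, plus strand): gaatatgagcggctccccaggcgctgtttg
The sites of GSY2, RTT101 and SER3 had no A, whereas 89.3% of all far-upstream sites ended in A. ISW1 had the longest run printed, 11 bases, and RPL26B lay just past a tract of A.

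Totals in the table ran from 380332 to 480847 reads for deletion libraries and from 233749 to 368419 for wild-type ones. They are not library depths, as every gene listed has more than 1 cluster and other genes were not analysed here. JHD2 had 0 clusters, which leaves the deletion unchecked by its own reads. All 4 alpha-cell genes looked for were present, with 27890 reads, against 29 reads in 2 of 5 a-cell genes. Every pair of replicates differed by more than sampling noise, and wild-type replicate 2 stood apart, with a chi-square per degree of freedom of 2.86 and 2.58 against wild-type replicates 1 and 3, which differed from each other by 1.29.

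Far-upstream clusters were mostly ends inside protein-coding sequence. Of the 924, 814 lay in the coding sequence of their gene (88.1%, 95% exact binomial interval 85.8 to 90.1%, covering counting error only), in 633 genes. A further 105 lay past the stop codon, 4 in introns and 1 before the start codon. The 105 past the stop codon were not premature ends of the reading frame. For the coding clusters close to a start codon, described further on, the counts do not say whether the transcript began in the gene or before it. By reads the split was less uneven: the coding clusters held 21143 of the 29096 reads (72.7%), those past the stop codon 6675 (22.9%) and the 4 intronic ones 1235 (4.24%).

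Most of these ends were rare. The median far-upstream cluster had 18 reads over the 6 libraries, with quartiles of 13 and 29. A total of 495 had 10 to 19 reads and 33 had 100 or more, and the 15 most-read clusters held 21.0% of the reads. They were nevertheless seen repeatedly, 585 in all 6 libraries, 261 in 5 and 78 in 3 or 4. Within its gene the median far-upstream cluster held 10.6% of the reads, with quartiles of 6.11 and 18.4%. In 202 the share was 20% or more and in 6 it was 40% or more.

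The clusters reached back a median of 992 nt from the main cluster. Of the 924, 753 lay 500 nt or more upstream, 456 lay 1000 nt or more and 29 lay 4000 nt or more. The farthest, 8811 nt upstream, was in TRA1, which encodes a very large subunit shared by the SAGA and NuA4 acetyltransferase complexes, and the same gene held another at 6930 nt. CSF1 held one at 7523 nt, and TOR2, a kinase of the TOR complexes, held a pair at 6378 and 6117 nt. These 5 clusters had 10 to 31 reads each over the 6 libraries. At the limit itself, the members nearest to it were in PMT6 at 300 nt with 10 reads and in MRPS5 and FDC1 at 302 nt with 19 and 11 reads. The nearest clusters left out were in AMN1 at 299 nt with 21 reads and in TGS1 and STP1 at 297 nt with 176 and 17 reads.

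**Figure D1:**
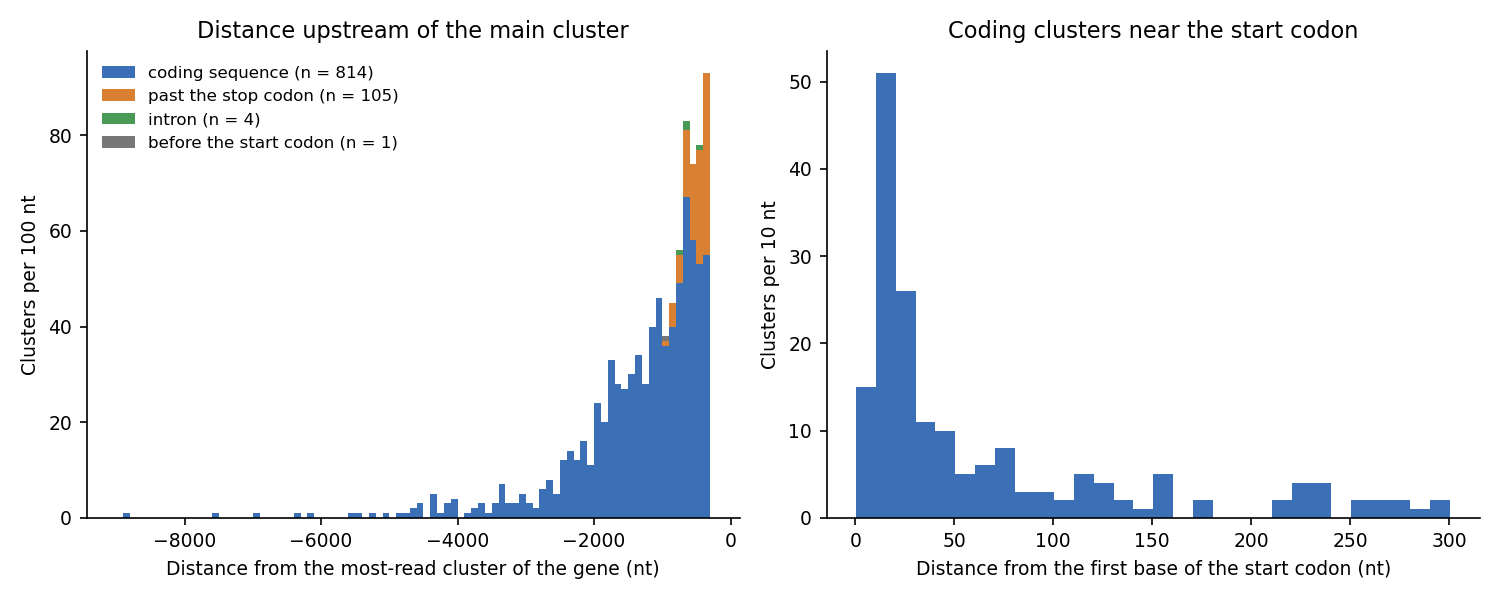
Left, number of far-upstream clusters per 100 nt of distance from the most-read cluster of their gene, stacked and coloured by region. Right, coding clusters per 10 nt of distance from the first base of the start codon. Most of the 924 clusters lie within 2000 nt of the main cluster, and the right panel peaks in the bins just after the start codon, where 66 clusters lie 11 to 25 nt into the gene.

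Inside coding sequences the ends were spread over the whole reading frame, with a cluster of sites right after the start codon. With the coding sequence cut into 4 equal lengths, from the start, 217, 189, 245 and 163 of the 814 were found. A total of 138 lay within 100 nt of the start codon, in 124 genes, against 21 in the next 100 nt and 19 to 41 in each 100 nt from there to 1000 nt. Within the first 100 nt, 15 lay at bases 1 to 10, 66 at bases 11 to 25, 32 at bases 26 to 50 and 25 beyond. The 100 nt window was chosen after these positions were seen, so no test was made of it.

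The start-proximal ends often followed a neighbouring gene on the same strand. For 98 of the 138 (71.0%) the nearest gene upstream ran in the same direction, and they lay a median of 401.5 nt past its end, 68 of them within 500 nt. Among the other 676 coding clusters the nearest upstream gene ran in the same direction for 353 (52.2%), at a median of 1761 nt past its end, with 9 within 500 nt. Over all 4014 genes of the table the share was 49.9%. A cluster is given to a gene by position, so the deposited counts do not say whether such a read began in that gene or in the one before it. Distances to the upstream gene are shorter near a start codon by position alone.

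The most-read start-proximal end was in ERV25, which encodes a p24 protein of COPII vesicles, at base 12 of the coding sequence and 224 nt past UBX2. It had 56, 53 and 79 reads in deletion replicates 1 to 3 and 53 in each wild-type library, 11.8% of the reads of the gene. FIT2, a wall mannoprotein of iron uptake, had 227 reads at base 16, a share of 32.9%. MOD5, a tRNA isopentenyltransferase, had 187 reads at base 8, a share of 32.8%, and its upstream neighbour TPO4 runs in the opposite direction. SWI1, a subunit of the SWI/SNF remodeller whose upstream neighbour also runs the other way, had the highest share of any far-upstream cluster in a gene with 100 or more reads. That end, at base 20 and 4039 nt from the main cluster, held 43.6% of the reads of the gene. RPN4, the transcription factor of proteasome genes, had 133 reads at base 12, a share of 38.2%. In these genes the end by the start codon therefore held between 11.8 and 43.6% of the reads assigned to the gene.

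Ends deeper in the coding sequence were led by ISW1, the ATPase of an ISWI remodelling complex. Its end at base 153 had 25, 42 and 67 reads in deletion replicates 1 to 3 and 50, 31 and 24 in wild-type replicates 1 to 3, and the groups overlapped. It held 33.9% of the reads of the gene, 3355 nt from the main cluster, and it lies at the run of 11 A printed above. ASN1, an asparagine synthetase, had 159 reads at base 1319, a share of 18.9%. Stretches of A in the genome were otherwise uncommon at these sites. A tract of 8 or more A from 30 nt before to 10 nt after the site was found at 15 far-upstream clusters (1.62%) with 7.27% of their reads, and at 4.65% of main clusters with 6.83% of theirs. Tracts of 10 or more were found at 9 clusters (0.974%) with 5.91% of the reads, most of these reads being at RPL26B and ISW1, and at 2.53% of main clusters with 3.31% of theirs. Whether any of these reads were primed inside the transcript was not tested. The authors' filter asks for at least 2 unaligned T at the start of the read.

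The 105 clusters past the stop codon lay a median of 121 nt past it, in 75 genes whose main cluster lay 329 to 980 nt past it. Clusters were given to genes extended up to 1000 bp, so a main cluster this far out can belong to a neighbouring transcript. Whether both ends belong to transcripts of the same gene was not tested. For the 814 coding clusters the main cluster lay a median of 124 nt past the stop codon, against 128 nt over all genes. Among the 15 most-read far-upstream clusters, 8 lay past the stop codon. PMA1, the plasma membrane proton pump, ended 67 nt past its stop codon in 16.4% of its reads, 449 nt before its main cluster. GLY1, a threonine aldolase, ended 125 nt past it in 24.95% of its reads, and RSA1, a factor for assembly of the large ribosomal subunit, 72 nt past it in 39.9%. The stop-proximal end of GSM1, a putative zinc-cluster protein, held 42.3% and that of CDC43, a subunit of a protein prenylating enzyme, 37.7%. ECM33, a wall protein anchored by glycosylphosphatidylinositol, ended 146 nt past its stop codon in 10.8% of reads. The other members of this kind among the most-read 15 were in RPL8A, GCN1, CAF20 and DFG5, with shares of 12.8 to 33.6%. RPL8A has a near-identical copy elsewhere in the genome, as have TPO2, IMD2 and RPL18B, and reads of these 4 genes are uncertain.

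The intronic ends lay in 4 clusters, and 1 of them held nearly all the reads. RPL26B, which encodes a protein of the large ribosomal subunit, had 1167 reads at a site 205 nt past its start codon inside its intron, the most of any far-upstream cluster and 13.3% of the reads of the gene. The site lies just past a genomic tract of at least 27 A. DBP2, an RNA helicase known to limit its own expression through its long intron, had 48 intronic reads (5.64%), and SCS22 had 10 (13.7%). The fourth, in GIM4, also had 10 reads.

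The genes with a far-upstream cluster had a longer coding sequence, with a median of 1998 nt against 1209 nt in the other genes of the table. A gene needs room for an end 300 nt before its main site, so the rule itself favours long genes. The reads per gene were close, with medians of 193.5 and 175. In 41 genes there were 3 or more far-upstream clusters, and RTT101 had 6, the most.

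The A and U content before the coding far-upstream sites was higher than in coding sequence in general and close to that before other clusters inside coding sequence. In the 60 nt before the site it averaged 67.7% (SD 5.94) for the 814 coding clusters and 71.0% for the 105 past the stop codon, against 73.2% for 3918 main clusters, most of which lie past the stop codon. Among clusters inside coding sequence it averaged 69.5% for the 161 main ones and 67.9% for the 116 lying less than 300 nt upstream of the main site. Over 143710 windows of 60 nt tiled along coding sequences it averaged 60.3% (SD 6.77). At the site itself, A or U was found at 91.0% of the coding clusters and 93.8% of main clusters. In the next base this dropped to 44.2% and 49.7%. A run of A is always placed at its last base by the alignment, so a high share at the site and a low share after it come with the placement.

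**Figure D2:**
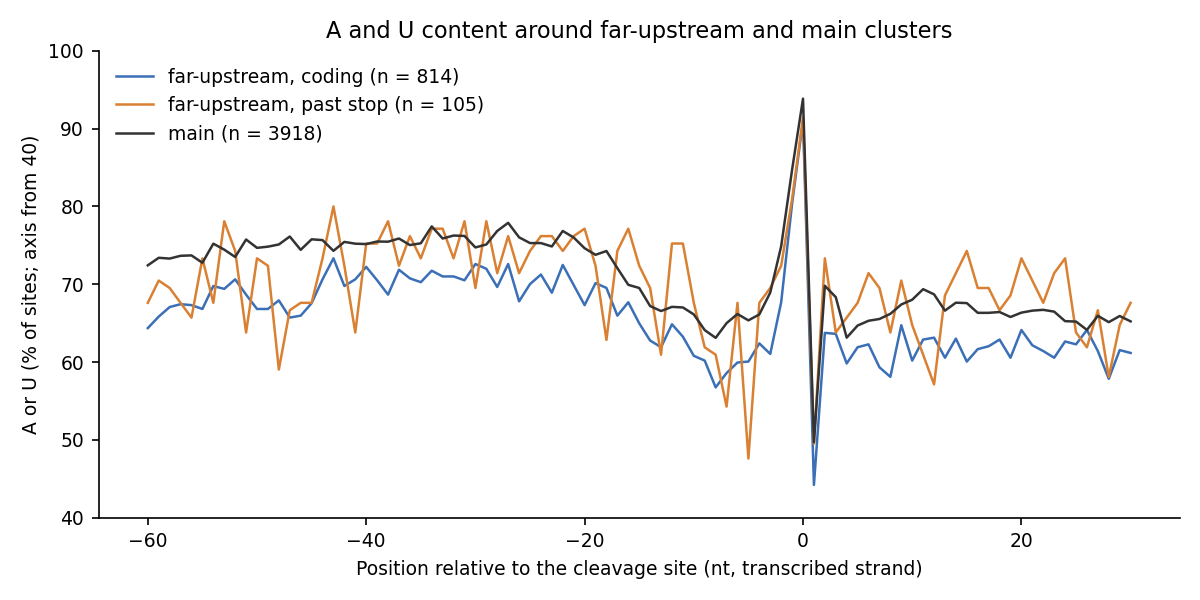
Percentage of sites with A or U at each position from 60 nt before to 30 nt after the clustered site (position 0), on the transcribed strand, for coding far-upstream clusters, those past the stop codon and main clusters. The vertical axis begins at 40%. All 3 lines rise to between 91.0 and 93.8% at the site and fall in the next base, and between 60 and 20 nt before it the coding line runs below the main line.

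Known signals of yeast 3′ ends were present at a minority of the sites. TATATA, which is the same on both strands, was found in the 60 nt before 86 of the 814 coding clusters (10.6%), 13.3% of the clusters past the stop codon and 31.8% of main clusters, against 1.28% of the coding windows of the same length. Clusters less than 300 nt upstream of the main site had it at 27.2% and clusters downstream at 15.3%. Inside coding sequence the shares were close to those of the far-upstream clusters, at 12.4% of the main clusters there and 12.1% of those less than 300 nt upstream. AATAAA on the transcribed strand preceded 8.72% of the coding clusters, 14.8% of main clusters and 4.16% of coding windows, and on the other strand the shares were 7.12, 11.9 and 3.90%. It preceded 15.5% of the main clusters inside coding sequence and 9.48% of those less than 300 nt upstream. A match is a description of the letters and not of a working site, and the absence of one says only that the letters are not in the window.

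The letters bound by Nrd1 and Nab3 were searched in the same way. GTAA lay before 25.7% of the coding clusters, 33.7% of main clusters and 17.2% of coding windows on the transcribed strand. On the other strand the shares were 23.5, 26.1 and 24.2%. Inside coding sequence, GTAA on the transcribed strand preceded 37.3% of main clusters and 30.2% of those less than 300 nt upstream. Among the 21 coding clusters with 100 or more reads, 11 had GTAA and 0 had TCTTG on the transcribed strand. TCTTG lay before 5.41% of the coding clusters, 4.88% of main clusters and 5.18% of coding windows, and on the other strand in 14.3, 5.11 and 14.4%. Coding windows lack the sites' higher A and U content, so these shares compare windows that differ in composition as well.

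Genes whose products act in elongation, termination or translation were looked up as lists, which were chosen with earlier results of these data known. Far-upstream clusters were found in 8 of the 18 elongation genes in the table (SPT5, SPT6, SPT16, CTR9, LEO1, SET2, HPR1 and THO2), 5 of 20 cleavage and polyadenylation genes (RNA14, CFT1, SSU72, REF2 and GLC7), 3 of 21 early termination and exosome genes (NRD1, NAB3 and DIS3) and 1 of 7 COMPASS genes (SWD1). They were found in 5 of 79 ribosomal protein genes and in 21 of 172 genes with 2 or more coding exons. The share over all genes was 17.4%. These lists differ in gene length, and no test was made of the shares.

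Of 21 table genes known for early or regulated 3′ ends, 8 held far-upstream clusters, and in most the ends were rare. NRD1, whose product is known to end its own transcripts near the start of the gene, had 4, at bases 26, 105, 254 and 310 of the coding sequence, with 13, 19, 31 and 10 reads. CBP1, a mitochondrial mRNA stability factor known for a shorter transcript ending in its coding sequence, had 4 with 10 to 23 reads each, at bases 1009 to 1662. RNA14, a cleavage factor subunit also known for shorter transcripts, had 3, at bases 1054, 1510 and 1536, with 36, 28 and 27 reads. URA2, of pyrimidine synthesis, had a pair at bases 1487 and 4206. IMD2, of GTP synthesis, and ADE12, of AMP synthesis, ended at bases 6 and 38 in 3.69 and 4.66% of their reads. CLB2, a B-type cyclin, had 16 reads 273 nt past the stop codon, and YGP1, a secreted wall-related glycoprotein, had 184 reads at base 21.

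The share of reads at far-upstream clusters differed between deletion and wild-type libraries by 0.0139 percentage points, less than the spread between libraries. The share of the table's reads was 1.30, 1.34 and 1.41% in deletion replicates 1 to 3 and 1.27, 1.43 and 1.31% in wild-type replicates 1 to 3. The mean was 1.35% ± 0.0546 (SD, n = 3) in the deletion and 1.34% ± 0.0834 (SD, n = 3) in wild type, and the groups overlapped. The exact 95% binomial interval of a library was at most 1.38 to 1.48%, in wild-type replicate 2, which has the fewest reads in the table. In bulk libraries, fewer cells making such a transcript and less of it per cell cannot be told apart. No p is given, since this is a score over the clusters.

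By region the groups overlapped for the ends near the start codon (0.242% ± 0.00191 against 0.246% ± 0.0253), for the other coding ends (0.744% ± 0.0504 against 0.721% ± 0.0416) and for the ends past the stop codon (0.316% ± 0.00556 against 0.299% ± 0.0196), each as SD with n = 3. The 4 intronic clusters were lower in every deletion library, at 0.0447, 0.0481 and 0.0534% against 0.0616, 0.0941 and 0.0570%. Nearly all of those reads belong to RPL26B.

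**Figure D3:**
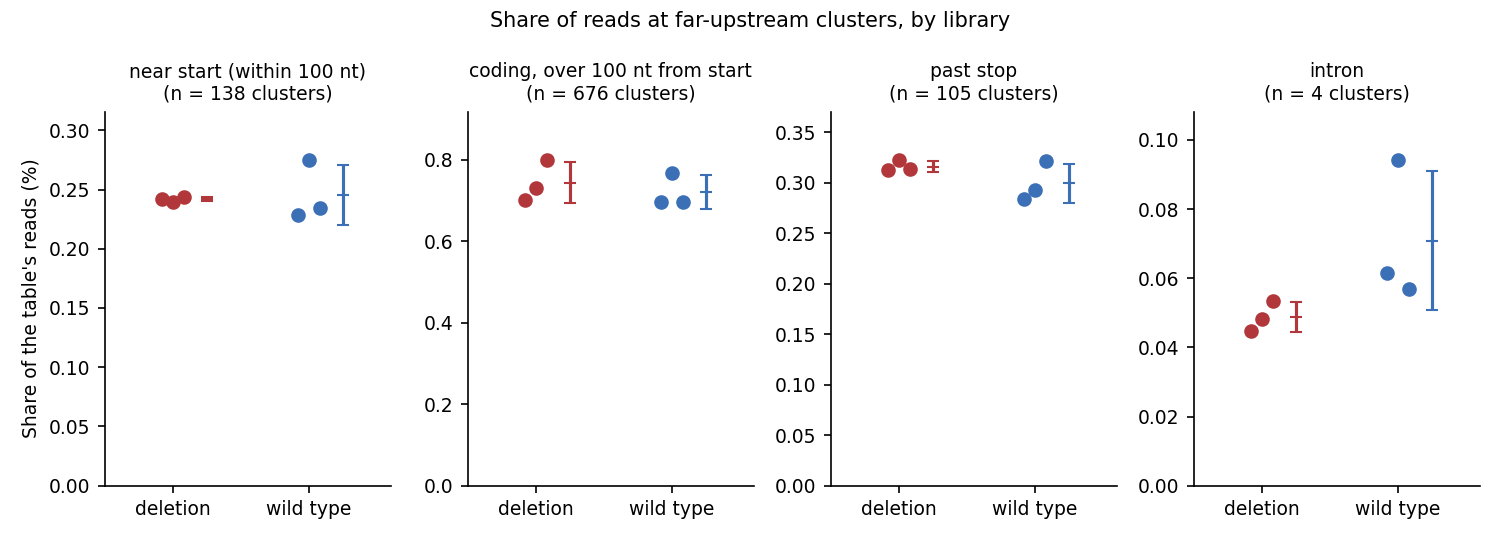
Share of the table's reads (%) at far-upstream clusters in each library, by region, with the deletion in red and wild type in blue. Points are libraries, and the bar beside them is the mean with its SD. The groups overlap in every panel but the intron panel, where the deletion libraries sit between 0.0447 and 0.0534% and the wild-type libraries between 0.0570 and 0.0941%.

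The level of single far-upstream clusters was compared between strains over all 9511 clusters with 10 or more reads. Levels are TMM-scaled counts per 1e6 reads (CPM), and log2 fold changes are deletion over wild type. With the quasi-likelihood test of edgeR and an adjusted p under 0.05, 2 of the 924 were higher in the deletion (0.216%), against 0.400% of all clusters tested, and 0 were lower, against 0.0736%. At an unadjusted p under 0.05 there were 40 higher and 19 lower, or 4.33 and 2.06%, against 4.15% and 2.86% of all clusters tested. DESeq2 and limma-voom also called 0 lower. CPM values of the groups did not overlap in 68 far-upstream clusters that were higher in the deletion (7.36%, against 6.90% of all clusters) and 41 that were lower (4.44%, against 5.49%). These shares were near or below those over all clusters. The minimum of 10 summed reads favours clusters higher in the deletion, both here and over all clusters. The median log2 fold change was 0.05, with quartiles of -0.36 and 0.60, against a median of 0.01 over all clusters.

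**Figure D4:**
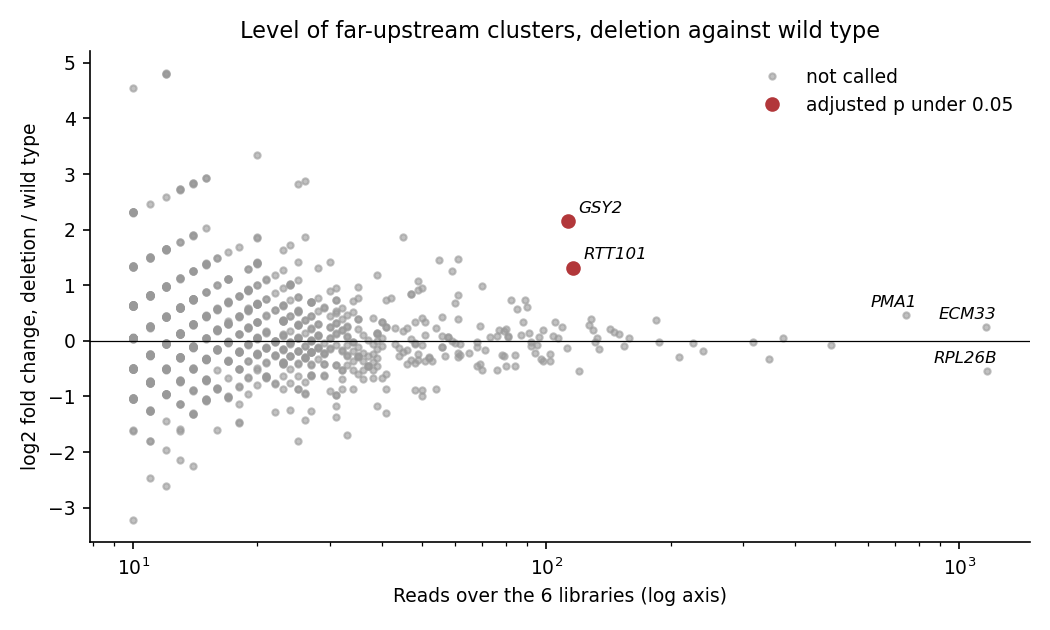
Log2 fold change of each far-upstream cluster (deletion over wild type) against its reads summed over the 6 libraries on a log axis, with called clusters in red. The fold changes fan out below 50 reads, and the called clusters are those of GSY2 and RTT101, with 113 and 116 reads.

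GSY2, a glycogen synthase, had the far-upstream end that rose most clearly. At base 990 of its coding sequence, 46.7% of the way through it, the counts were 33, 29 and 36 in deletion replicates 1 to 3 and 8, 3 and 4 in wild-type replicates 1 to 3. The level was 77.5 ± 1.35 CPM against 16.4 ± 4.93 CPM (SD, n = 3 each), and the groups did not overlap. The log2 fold change was 2.16 (SE 0.35, edgeR adjusted p = 9.46e-05).

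The main cluster of GSY2, 364 nt past the stop codon, rose with it, at a log2 fold change of 1.76 (SE 0.30, edgeR adjusted p = 0.000232), from 29.6 ± 10.8 to 105 ± 8.33 CPM. Of the reads of the gene, the early end held 38.3% ± 2.57 in deletion libraries and 34.8% ± 10.1 in wild-type ones (SD, n = 3 each), and these shares overlapped. Its change relative to the gene as a whole was 0.16 on the log2 scale (edgeR diffSpliceDGE adjusted p = 1.00). Another early end of GSY2, at base 800 and named after its values were seen, had 4, 3 and 7 reads against 0, 0 and 1. It reached the minimum of 10 reads through the deletion libraries, so nothing is read from its counts. It did not pass the test (edgeR adjusted p = 0.418).

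RTT101, the cullin of a ubiquitin ligase that acts in DNA replication, rose at an end 278 nt past its stop codon. The counts were 26, 23 and 42 in deletion replicates 1 to 3 and 11, 9 and 5 in wild-type replicates 1 to 3, and the levels, 70.8 ± 15.5 and 28.9 ± 10.4 CPM (SD, n = 3 each), did not overlap. The log2 fold change was 1.31 (SE 0.33, edgeR adjusted p = 0.0492). The main cluster, 927 nt past the stop codon, had a log2 fold change of -0.09 (edgeR adjusted p = 0.981). Of the reads given to RTT101 by position, the end at 278 nt held 34.9% ± 3.26 against 18.0% ± 3.13 (SD, n = 3 each). These shares did not overlap. The test of use for that end gave a log2 difference of 0.94 (edgeR diffSpliceDGE adjusted p = 1.00).

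The call for RTT101 was close to the threshold. Without deletion replicate 2 or 3 the edgeR adjusted p was 0.0650 and 0.395, and without wild-type replicate 1 or 3 it was 0.182 and 0.351. The range over all alternatives was 0.0203 to 0.709. The other 5 far-upstream ends of RTT101 had 11 to 42 reads, log2 fold changes of -0.74 to 0.97, and did not pass the test. The end 511 nt past the stop codon lies inside YJL047C-A, a small gene on the same strand. Reads at that end cannot be told apart from those of YJL047C-A. The main cluster of RTT101 lies farther downstream, so its reads can also belong to YJL047C-A. Whether the main cluster and the called end belong to transcripts of the same gene was not tested. The share at the called end is therefore not read as a change within RTT101.

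The remaining most-read clusters did not pass the test. RPL26B had 171, 172 and 246 intronic reads in deletion replicates 1 to 3 and 211, 219 and 148 in wild-type replicates 1 to 3. Its level was 463 ± 58.4 CPM in the deletion and 683 ± 221 CPM in wild type, with no overlap between groups and a log2 fold change of -0.55 (SE 0.18, edgeR adjusted p = 0.302). Wild-type replicate 2 was the highest library, and without it the log2 fold change was -0.27. The main cluster of RPL26B had a log2 fold change of -0.08, and the intronic end held 11.5% ± 1.31 of the gene's reads against 15.5% ± 1.97 (SD, n = 3 each).

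PMA1 had 142, 156 and 198 reads at its stop-proximal end in deletion replicates 1 to 3 and 95, 71 and 82 in wild-type replicates 1 to 3. The levels, 392 ± 49.8 and 287 ± 22.2 CPM, did not overlap, with a log2 fold change of 0.46 (SE 0.18, edgeR adjusted p = 0.503). ECM33 had 265, 230 and 234 reads against 184, 85 and 164, or 581 ± 75.1 and 487 ± 114 CPM, which overlapped. Over the 15 most-read clusters the log2 fold changes ran from -0.55 to 0.46.

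**Figure D5:**
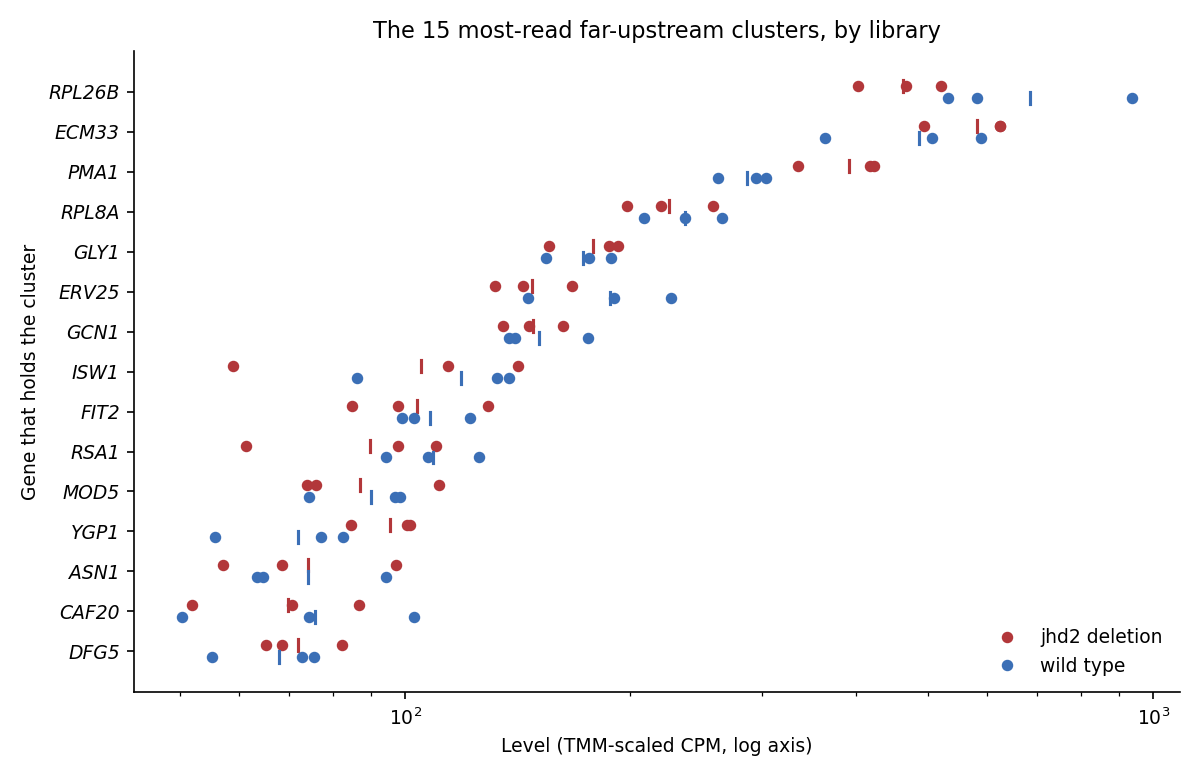
Level of the 15 most-read far-upstream clusters in each library (TMM-scaled CPM on a log axis), with the deletion in red and wild type in blue. Points are libraries and the short vertical lines are group means. Groups are mostly intermingled, and for RPL26B, PMA1 and YGP1 they do not overlap.

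The use of a cluster, its change relative to its gene as a whole, was tested over 8780 clusters with diffSpliceDGE of edgeR. At an adjusted p under 0.05, 0 of the 924 were called, against 0.00% of all clusters tested. In simulated counts this test recovered 0% of 2-fold and 13.0% of 4-fold changes at 10 to 49 reads. With 50 or more reads it recovered 4.17 and 32.6%. The 0 calls among the 924 therefore do not show that their use was unchanged. At an unadjusted p under 0.05 there were 29 higher (3.14%) and 23 lower (2.49%), against 1.33% and 1.08% of all clusters tested. The 3188 main clusters in that test held 6 and 3 such clusters, those less than 300 nt upstream 2.47 and 1.10%, and those downstream 1.27 and 1.74%. Of the 4 intronic clusters, those of RPL26B and GIM4 were among the lower ones. The corresponding limma-voom test called 1 lower, in YGP1. The groups' shares did not overlap in 62 clusters that were higher in the deletion (6.71%, against 4.92% of all clusters) and 39 that were lower (4.22%, against 5.00%). The share of a far-upstream cluster had a median SD of 4.01 percentage points between deletion libraries and 5.10 between wild-type libraries, and the median difference between groups was 3.12 points.

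YGP1 came nearest to a call for use. Its end at base 21, 1698 nt past the gene before it, had 43, 37 and 40 reads in deletion replicates 1 to 3 and 28, 13 and 23 in wild-type replicates 1 to 3. That is 95.4 ± 9.47 CPM against 71.8 ± 14.2 CPM (SD, n = 3 each), without overlap, and the log2 fold change of 0.38 did not pass (edgeR adjusted p = 0.837). The main cluster went from 205 ± 23.9 CPM in wild type to 800 ± 78.6 CPM in the deletion. The change of the early end relative to the gene as a whole was -1.31 on the log2 scale and did not pass (edgeR diffSpliceDGE adjusted p = 0.0587). Without wild-type replicate 2 it was 0.0183, and over all alternatives it ran from 0.0179 to 1.00.

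SER3, a phosphoglycerate dehydrogenase of serine synthesis, is known to be repressed by transcription of the noncoding RNA SRG1 across its promoter. Its far-upstream end, at base 70, lies within the annotated SRG1 on the same strand, so its reads cannot be told apart from those of SRG1. It had 8, 13 and 13 reads in deletion replicates 1 to 3 and 3, 5 and 5 in wild-type replicates 1 to 3. The levels, 27.2 ± 8.22 and 15.9 ± 6.81 CPM, overlapped, with a log2 fold change of 0.84 (SE 0.47, edgeR adjusted p = 0.770). Without wild-type replicate 1 the log2 fold change was 0.45. The main cluster of SER3 had a log2 fold change of -0.57 (SE 0.20, edgeR adjusted p = 0.379). Of the reads given to SER3 by position, this end held 14.8% ± 5.83 in deletion libraries and 6.23% ± 2.68 in wild-type ones, without overlap between libraries. The test of use did not pass (log2 difference 1.27, edgeR diffSpliceDGE adjusted p = 1.00).

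In the listed genes, 0 far-upstream clusters were called for level or use. The median log2 fold change was 0.01 for the 17 clusters in genes known for early ends and 0.07 for the 11 in elongation genes. It was -0.02 for the 9 in cleavage and polyadenylation genes and 0.59 for the 7 in early termination and exosome genes. For the 2 in COMPASS genes it was 0.31, for the 7 in ribosomal protein genes -0.07, and over all clusters 0.01. The 7 in early termination and exosome genes lay in 3 genes and had 10 to 36 reads each. Their median is the value of the NRD1 end at base 26, with 13 reads (SE 0.86). By list in the order given, the unadjusted edgeR p for level was under 0.05 in 1, 0, 0, 1, 0 and 1 clusters. For use it was under 0.05 in 2, 0, 0, 1, 0 and 1. For level, the ribosomal protein cluster was that of RPL26B, and the other was the NRD1 end at base 254. The NRD1 end had 3, 2 and 6 reads in deletion replicates 1 to 3 and 5, 4 and 11 in wild-type replicates 1 to 3. It gave 8.39 ± 3.80 CPM against 23.5 ± 14.0 CPM (SD, n = 3 each), with no overlap, and a log2 fold change of -1.37 (SE 0.56, edgeR adjusted p = 0.541). Without wild-type replicate 3, its highest library, the log2 fold change was -0.77. The NRD1 end at base 105 had the opposite sign, with 6, 4 and 5 reads against 0, 4 and 0, and its groups overlapped.

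A further 4 clusters had 0 reads in all wild-type libraries, in CDC39, STP4, PRB1 and SPG3, named after their values were seen. They had 10 to 12 reads in the deletion libraries together and did not pass the test. In 0 far-upstream clusters were all deletion libraries at 0. Over all 9511 clusters tested, wild type was at 0 in 11 (0.116%) and the deletion in 1 (0.0105%). A cluster at 0 in a group reached the minimum of 10 reads through the other group alone, and the deletion libraries hold more of the table's reads. Nothing is therefore read from these counts.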

How the data were processed

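Polyadenylated RNA of 6 yeast libraries was measured as read counts per pA cluster and library, deposited by the authors without normalization. Per the series description, reads longer than 15 bp were aligned to sacCer3 with Bowtie2 (version not given in the sources used here) after removing 4 bp, kept if MAPQ reached 10, mismatches stayed within 5% and at least 2 leading T were unaligned, and their ends were clustered within 24 bp. Clusters were given to genes extended up to 1000 bp, then filtered at 3 reads and 5% of the reads of the gene. In the table, 162 of the far-upstream clusters nevertheless hold under 5% of the reads their gene has there. A cluster can belong to a neighbouring transcript.

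Deposited positions count from 0: read so, main sites end in A in over 90% and are followed by A in none. Printed sites are those positions plus 1. Clusters were located by RefSeq R64 annotation, in which 4013 of 4014 genes were found and which holds every far-upstream cluster. Motifs were searched in the 60 nt before the site. Near-identical copies were those where 200 nt before the far-upstream site matched elsewhere over 100 nt or more at 95% identity or more (blastn 2.17.0).

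Level was tested per cluster in R 4.3.3 by edgeR 4.0.16, quasi-likelihood test (scaled by TMM, clusters with 10 or more reads, no covariate), and use with diffSpliceDGE, each adjusted by Benjamini-Hochberg over all clusters at a threshold of 0.05. The SE of a log2 fold change is its absolute value divided by the square root of the F statistic of the test. All 6 columns matched a label. Scripts were tested on simulated counts with known changes. Alternatives were DESeq2 1.42.0, limma-voom (limma 3.58.1), other filters, limits and scaling, a replicate block and leaving out each library. The members, lists and tests were chosen with earlier results of these data known. Named are the 15 most-read clusters, those called, the 5 with the highest share of a gene with 100 or more reads, the 5 farthest, those in genes known for early ends, the 3 most-read intronic ones, those in noncoding RNA and those at the limit. Genes outside this rule (upstream neighbours, listed genes, near-identical copies) appear as such.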

Additional observations from a re-analysis of the deposited data

How the results depend on the processing

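The cluster of GSY2 was called in every alternative run. That of RTT101 was lost, leaving 1 cluster called higher, with the replicate number as a block (adjusted p = 0.0586), a minimum of 20 reads (0.0577), the default filter of edgeR (0.0522), size factors of DESeq2 (0.0532), the DESeq2 Wald test (0.709) and limma-voom (0.109). Leaving out each library gave 1 to 2 called higher and 0 called lower. For use, 1 cluster, YGP1, was called lower with a minimum of 20 reads, with the default filter and with limma-voom, and 0 to 1 when each library was left out. The cause was not tested beyond the fewer clusters under the stricter filters: the default filter kept 83 of the 924 for level. The use of the GSY2 cluster ran from -0.086 to 0.35 on the log2 scale over the libraries left out, reversing without wild-type replicate 3. The difference in share of reads was -0.107 percentage points with the reads of the genes that hold such a cluster as denominator. On that base the shares were 13.0% ± 0.476 in the deletion and 13.1% ± 0.635 in wild type (SD, n = 3 each). With the table's reads as denominator the difference was -0.0186 to 0.0609 points over the libraries left out. With a minimum of 5 or 20 reads there were 1651 or 429 clusters, of which 90.6 or 83.45% were coding. Limits of 200 and 400 nt gave 82.2 and 91.5% coding. Same-numbered libraries of the groups did not deviate together (correlations of -0.124, 0.0008 and -0.0169), so the numbers are not taken as pairs, and the block changed no other call among the clusters named. With a median of 18 reads per cluster, the counts limit which changes can be seen: a cluster near 10 reads has 1 or 2 reads per library. In simulated counts the level test recovered 1.92% of 2-fold and 42.6% of 4-fold changes at 10 to 49 reads. With 50 or more reads it recovered 58.3 and 87.0%.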

Other observations

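Several far-upstream clusters share their main site with an unusual place in the annotation. For 16 of the 924 the most-read cluster of the gene was itself inside the coding sequence, and for 10 it lay in another gene on the same strand. A further 14 far-upstream clusters lay across a gene on the opposite strand, where the direction of the read gives the strand. The 1 far-upstream cluster before a start codon was in LTO1, named after its values were seen, 199 nt past ATX1 on the same strand, with 43 reads.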
